A study of Mus musculus with 20 samples.

Results

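The genes described here are the histone cluster genes of the mouse, the family that makes the bulk of H1, H2A, H2B, H3 and H4 during S phase, read in 20 tumour libraries. They were chosen by symbol: every gene whose name begins with Hist and a cluster number from 1 to 4. In the GENCODE M21 annotation of the deposited count table that pattern found 70 genes of 55406, made up of 6 H1, 20 H2A, 19 H2B, 12 H3 and 13 H4 genes, 3 of them pseudogenes. In the deposited RPKM table, where the pattern was meant to be read, it found only 8 symbols of 22417, because most of the family is listed there under newer names such as H1f2 or H2bc4. Of those 8, Hist1h2br, Hist1h4m, Hist1h2bq, Hist1h2ao and Hist1h2ap were listed at 0 in every library, and the highest value of any of them was an RPKM of 0.177, for Hist1h4n in 1 PARPi plus anti-VEGFA tumour. The description below therefore uses the 70 genes, of which 67 had a matching row in the RPKM table.

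All tumours came from ID8 cells, a mouse ovarian surface epithelial line, that carried luciferase and lacked Trp53 and Brca1 (ID8 Trp53-/-Brca1-/-), injected into the peritoneum of C57/BL6 female mice. The treated groups were PARPi (olaparib, an inhibitor of poly(ADP-ribose) polymerase, 40 mg per kg per day by mouth, 3 tumours), ICB (100 µg anti-CTLA-4 and 200 µg anti-PD-L1 antibody, 3 tumours), PARPi with ICB (3 tumours), PARPi with 20 µg anti-VEGFA antibody (4 tumours), and PARPi, ICB and anti-VEGFA together (4 tumours). Antibodies were given into the peritoneum 2 times a week. The control group was 3 tumours of untreated mice, which carried the same Trp53 and Brca1 deletions. All groups rest on 1 cell line, and the age of the mice is not stated in the labels. The sample titles read as 1 mouse per replicate, without saying so outright. The p-values test differences between groups against the spread between these samples.

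Histone cluster genes are the one large class of mRNA in animal cells that normally ends without a poly(A) tail. Their transcripts end a few bases after a short conserved stem-loop, which is bound by SLBP (stem-loop binding protein) and lets histone mRNA rise when DNA is copied and decay when copying stops. A minority of the genes also makes longer, polyadenylated transcripts that run past the stem-loop or splice around it, chiefly in cells that have left the cycle. Mki67, which codes for the proliferation antigen Ki-67, is a polyadenylated mRNA of cycling cells and serves as the yardstick below.

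The stem-loop is shown first, since the annotated end of each transcript divides the family. A stem of 6 base pairs around a loop of 4 bases was found between 21 and 58 bases after the stop codon in GENCODE M21 transcripts of 44 of the 70 genes (capitals mark the loop, 5′ to 3′, DNA letters). The first form below was carried by 26 genes, 3 H1, 10 H2A, 8 H2B and 5 H3, among them Hist1h1c and Hist3h2a. The second, with A as the last loop base, was carried by 6 genes, 1 H1, 2 H2B and 3 H3. The third was carried by 7 genes and the fourth by 2, among them Hist1h4i and Hist2h4, and all 9 were H4 genes. The fifth was carried by 2 H4 genes, among them Hist1h4j. A sixth form, with a loop of TTTT on the stem of the first, was carried by Hist2h2ac alone.
Form 1: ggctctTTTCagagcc
Form 2: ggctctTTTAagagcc
Form 3: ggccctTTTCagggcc
Form 4: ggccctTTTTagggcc
Form 5: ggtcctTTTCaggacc
Form 6: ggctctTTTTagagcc

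In 22 of these 44 genes the annotated transcript ended within 100 bases of the stem-loop, and in the other 22 it ran further. Among the genes in which no stem-loop was found, the transcripts of 18 ended shortly after the stop codon. Most of these were annotated only to about the stop codon, as in Hist1h4k (0 bases after it) and Hist1h2ah (2 bases). No stem-loop could be found there, so whether these genes carry one is not shown. Those of 5, Hist1h2bc, Hist2h2be, Hist1h2bq, Hist1h2br and Hist1h4a, had a longer end in which none was found. The division at 100 bases was chosen after the levels had been seen, and so the levels by type of end are a description.

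Most of the family was barely read in these libraries. The 70 genes together received 56826 counts over all 20 libraries, and 5 genes held 89.5% of them: Hist1h1c with 17728 counts, Hist1h2bc with 16144, Hist2h2be with 7648, Hist3h2a with 4869 and Hist1h4i with 4467. No other member passed 737 counts, 54 members had a median under 10 counts per library, and 9 had no count in any library. A count of 0 allows up to 3 counts, or 0.0864 to 0.113 CPM in a single library (CPM, the count scaled to a fixed library total), counting error only. Reads lost through shared sequence, described below, are not part of that limit. Between 33 and 44 of the 70 members had at least 1 count in a given library.

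**Figure D1:**
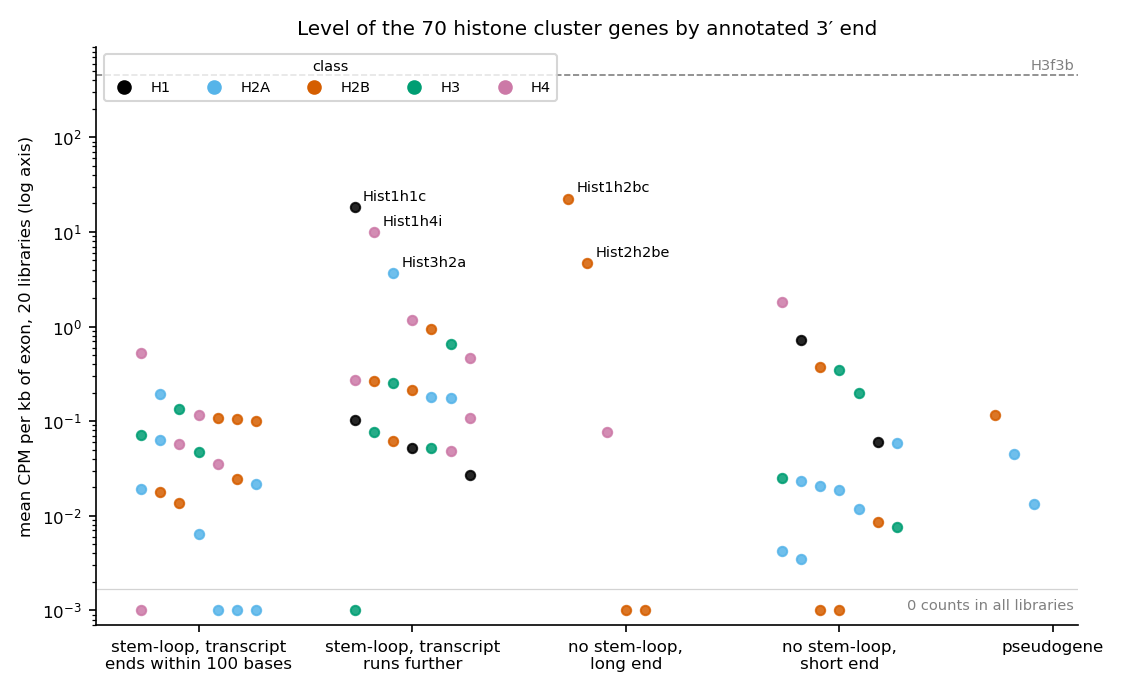
Mean level over 20 libraries of each of the 70 histone cluster genes, in CPM per kb of annotated exon on a log axis, grouped by the annotated 3′ end and coloured by class; the 9 genes with no count are drawn below the grey line, and the dashed line is the replication-independent histone gene H3f3b. The 5 named genes lie between 3.67 and 22.5 CPM per kb, and no gene whose transcript ends near its stem-loop passes 0.53. Most genes drawn as a short end without a stem-loop are annotated only to about the stop codon, where none could be found. Genes whose transcript ends near the stem-loop all share at least 39.5% of their 50-base stretches with another gene.

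Per kb of exon, Hist1h2bc stood highest among the members at a mean of 22.5 CPM per kb, followed by Hist1h1c at 18.3, Hist1h4i at 9.89, Hist2h2be at 4.69 and Hist3h2a at 3.67. The median member was at 0.061 CPM per kb. On the same scale Mki67 averaged 33.0 CPM per kb, and the replication-independent histone genes H3f3b, H3f3a and H2afz, which code for the variants H3.3 and H2A.Z in ordinary polyadenylated mRNA, averaged 455.3, 64.9 and 51.7. The plot of levels by annotated end shows where the counts fell. The 22 genes whose transcript ended near the stem-loop held 0.936% of the family's counts, with Hist1h4h highest at 0.53 CPM per kb. The 22 whose transcript ran past it held 55.3%, and the 5 with a long end and no stem-loop found held 41.9%. The 18 with a short end and none found held 1.79%, and the pseudogenes 0.0792%. These types of end also differed in the sequence they share with other genes, given below.

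The labels describe total RNA and a depletion step, a preparation in which histone RNA without poly(A) would be within reach. Other RNAs known to lack poly(A) were also near 0: Rmrp, Rpph1, Terc, Rny3 and Rn7s1 had no count in any library, and the highest of the 10 such genes listed, the minor spliceosome RNA Rnu11, averaged 0.025 CPM. Rn7sk, another such RNA, averaged 1.11 CPM over the libraries. The mRNAs of 12 listed genes of histone gene transcription and 3′ processing averaged from 2.09 CPM (Zfp473) to 106.4 CPM (Sympk). Slbp averaged 50.3 CPM and Npat, which codes for the coactivator of histone gene transcription, 42.2. Whether the preparation, the size of the fragments kept or the counting set the low histone levels was not tested.

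Shared sequence touches these counts, since a read that matches several copies may be dropped or placed at random. Of the 50-base stretches of each member's transcripts, the share also present in another annotated gene ran from 0% in Hist2h2be, Hist1h1a, Hist1h1b and Hist1h1t to 100% in Hist2h2aa1, Hist2h2aa2, Hist2h2bb, Hist2h3b and Hist2h3c1. It was 8.5% in Hist1h1c, 28.9% in Hist1h4i, 30.6% in Hist1h2bc, 31.5% in Hist3h2a and 71.5% in Hist1h4k. In Hist3h2a 33.0% of the exon bases also lay in another gene on the same strand, so its counts are uncertain. That share was 100% in Hist2h3c1, 90.3% in Hist2h2aa1 and 59.3% in Hist2h2bb, all with no count. Of the 9 genes with no count, all but Hist1h2ba (38.2%) had at least 88.7% of their 50-base stretches shared. A 0 in these genes does not show that their RNA was absent. Every gene whose transcript ended near the stem-loop had at least 39.5% of its stretches shared (Hist1h4f the least). Among those that ran past it the share ran from 0% in Hist1h1t to 100% in Hist2h3c1. Type of end and shared sequence thus varied partly together, and their parts in the low counts were not tested. Outside the 5 genes of high level, 6 members had under 10% of such stretches shared, and all 6 lay below 1 CPM per kb: Hist1h1b at 0.724, Hist2h4 at 0.463, Hist1h1d at 0.103, Hist1h1a at 0.0599, Hist4h4 at 0.0484 and Hist1h1t at 0.0268. None of these 6 is a gene whose annotated transcript ends near the stem-loop, so they do not bear on that type of end. The values of Hist1h1d and Hist4h4 are divided by 7425 and 2863 exon bases, most of them past the stop codon.

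By class, H2B genes held 44.7% of the family's counts, H1 genes 32.8%, H4 genes 11.3%, H2A genes 9.45% and H3 genes 1.8%. In every class except H3, 1 or 2 genes stood far above the rest. Among linker histones, Hist1h1c (H1.2) averaged 28.5 CPM against 0.538 for Hist1h1b (H1.5) and 0.762 for Hist1h1d (H1.3). Among H2A genes, Hist3h2a averaged 7.87 CPM, ahead of Hist1h2ac at 0.435, Hist1h2ae at 0.125 and Hist1h2ad at 0.111. Among H3 genes the highest, Hist1h3d, averaged only 0.826 CPM, with Hist1h3g at 0.182, Hist2h3c2 at 0.261 and Hist1h3i at 0.0807. Among H4 genes Hist1h4i averaged 7.19 CPM, ahead of Hist1h4j at 0.898, Hist1h4k at 0.567 and Hist1h4h at 0.249. These class values are levels in CPM, not scaled by length.

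Hist1h2bc and Hist2h2be, the H2B genes of high level, each share a divergent promoter with an H2A gene that was barely read. Hist1h2bc (chromosome 13, 23684199 to 23692908, plus strand) averaged 26.0 CPM and its partner Hist1h2ac 0.435 CPM. Hist2h2be (chromosome 3, 96221119 to 96223738, plus strand) averaged 12.3 CPM, and its partner Hist2h2ac had 2 counts in all 20 libraries. The stretches between each pair are printed as the 250 bases before the start of the H2A gene, on its strand, with the upstream stretch of Hist1h1c and of Hist1h4i beside them (RefSeq, GRCm38.p6). The first few bases of both H2A entries lie in the first exon of the H2B partner. Capitals mark the letters of the CCAAT box (CCAAT), the TATA box (TATAAA) and the octamer (ATTTGCAT) wherever they occurred, on either strand. The octamer is the site of the transcription factor OCT1 in H2B promoters. Distance from the gene start was not considered, so a match need not be a working box.
Hist1h2ac and Hist1h2bc, chr13:23683960-23684209, minus strand: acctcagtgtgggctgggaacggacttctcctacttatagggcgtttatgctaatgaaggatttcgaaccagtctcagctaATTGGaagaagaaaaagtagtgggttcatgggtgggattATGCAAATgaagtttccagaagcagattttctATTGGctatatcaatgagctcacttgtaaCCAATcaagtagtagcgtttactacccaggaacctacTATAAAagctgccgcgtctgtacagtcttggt
Hist2h2ac and Hist2h2be, chr3:96220881-96221130, minus strand: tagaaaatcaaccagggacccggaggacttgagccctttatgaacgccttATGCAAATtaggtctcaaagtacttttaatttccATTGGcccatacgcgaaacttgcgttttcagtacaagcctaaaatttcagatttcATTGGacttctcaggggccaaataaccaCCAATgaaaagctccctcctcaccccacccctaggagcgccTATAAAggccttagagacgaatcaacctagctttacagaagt
Hist1h1c, chr13:23738557-23738806, plus strand: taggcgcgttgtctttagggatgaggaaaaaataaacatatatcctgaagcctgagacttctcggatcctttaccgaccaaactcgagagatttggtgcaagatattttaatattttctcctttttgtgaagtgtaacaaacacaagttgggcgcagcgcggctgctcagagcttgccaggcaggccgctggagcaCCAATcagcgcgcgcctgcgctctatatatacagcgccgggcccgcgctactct
Hist1h4i, chr13:22041363-22041612, minus strand: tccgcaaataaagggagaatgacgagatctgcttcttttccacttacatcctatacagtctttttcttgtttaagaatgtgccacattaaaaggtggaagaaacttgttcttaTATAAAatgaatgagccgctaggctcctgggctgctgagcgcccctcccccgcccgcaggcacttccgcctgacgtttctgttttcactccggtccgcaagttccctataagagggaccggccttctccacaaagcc

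Both shared stretches held the octamer, 3 matches of CCAAT and TATAAA. Among members with an entry, the octamer was present in the 250 upstream bases of 7 of 15 H2A and 7 of 13 H2B genes and of no H1, H3 or H4 gene, against 1.8% of all 27025 genes in the table. CCAAT was present in all 6 H1, all 15 H2A and all 13 H2B genes, in 8 of 10 H3 and 3 of 10 H4 genes, against 37.5% of all genes. TATAAA was present in 40.0% to 66.7% of the members by class, against 14.3% of all genes. The upstream stretch of Hist2h2ac held all 3 although the gene had 2 counts. That of Hist1h4i held only TATAAA, near the middle of the stretch and not close to the gene start.

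Whole-library features that touch the results were as follows. Total counts ran from 26863893 to 34663888 per library. The epithelial and mesothelial markers of ID8 tumours were all detected, with mean levels from 4.23 CPM (Epcam) to 936.7 CPM (Wt1). Pancreatic acinar genes averaged over 2 log2 CPM in 4 libraries, ICB replicate 3, PARPi plus anti-VEGFA replicates 1 and 4 and triple treatment replicate 2. Averaged on the log2 CPM scale, Rn7sk, Lars2 and Mir6236, RNAs read as signs of library make-up, lay between 2.72 and 4.63 in treated tumours, against 4.47 to 4.82 in controls. Among treated tumours only triple treatment replicate 4 reached the range of the controls.

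The summed level of all 70 members was modestly higher in most treated tumours, and it did not follow Mki67. It was 81.0, 80.7 and 87.6 CPM in PARPi tumours, 95.03, 81.4 and 89.0 CPM in ICB tumours, and 93.3, 100.3 and 87.6 CPM in PARPi plus ICB tumours. It was 97.2, 112.6, 107.2 and 93.4 CPM in PARPi plus anti-VEGFA tumours and 109.8, 104.1, 83.8 and 94.1 CPM under all 3 treatments, against 76.3, 74.9 and 81.4 CPM in controls. The PARPi plus ICB, PARPi plus anti-VEGFA and triple-treated tumours lay above every control, and the PARPi and ICB tumours overlapped the controls. In bulk tissue, a change in the cells present and a change in RNA per cell cannot be told apart.

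Mki67 in the same libraries was 376.7, 413.5 and 400.4 CPM in PARPi tumours, 175.4, 247.5 and 322.1 CPM in ICB tumours, and 396.8, 277.4 and 267.4 CPM in PARPi plus ICB tumours. It was 368.5, 354.5, 389.5 and 424.0 CPM in PARPi plus anti-VEGFA tumours and 353.8, 279.7, 247.9 and 305.2 CPM under all 3 treatments, against 313.7, 363.7 and 365.6 CPM in controls. All PARPi tumours lay above the controls and 2 of 3 ICB tumours below them. By edgeR's quasi-likelihood test Mki67 was called in none of the comparisons, and the difference nearest to a call, ICB against control, was -0.49 on the log2 scale (SE 0.18, adjusted p = 0.156).

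**Figure D2:**
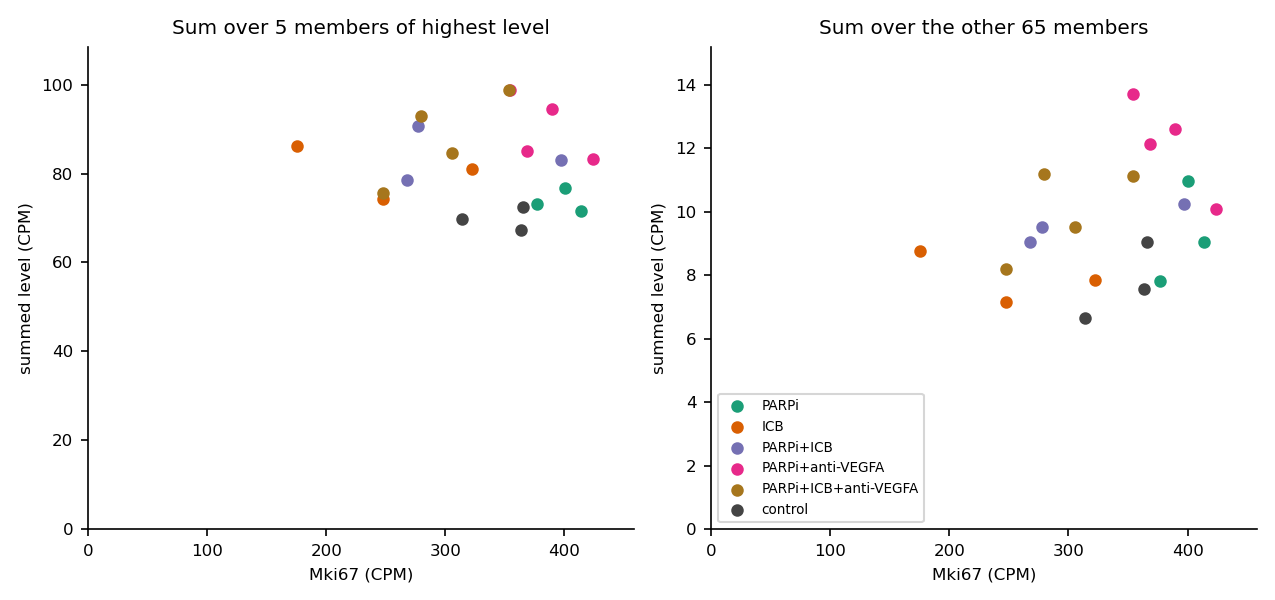
Summed level of the 5 members of highest level (left) and of the other 65 (right) against Mki67, all in CPM, 1 point per library coloured by treatment. On the left the points form no slope, and on the right only 3 PARPi plus anti-VEGFA tumours lie above 11.2 CPM.

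As a share of the Mki67 level in CPM, the summed members came to 19.5% to 21.9% in PARPi tumours, 27.6% to 54.2% in ICB tumours, 23.5% to 36.1% in PARPi plus ICB tumours, 22.0% to 31.8% in PARPi plus anti-VEGFA tumours and 30.8% to 37.2% under all 3 treatments, against 20.6% to 24.3% in controls. Over the 20 libraries Pearson's r between the log2 sum and log2 Mki67 was -0.005 and Spearman's rho -0.089, and r was 0.056 over deviations from group means. Without the libraries farthest from the median of the sum, r was 0.001. These are descriptions over libraries that share normalization, and they carry no p.

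For the sum of the 5 genes of high level, r with Mki67 was -0.073, but these genes differed among themselves. It was 0.359 for Hist1h4i and 0.31 for Hist2h2be, against -0.283 for Hist1h1c, -0.218 for Hist3h2a and -0.059 for Hist1h2bc. For the other 65 members, with at least 211 counts in each library, r was 0.341, and 0.123 over deviations from group means. By class r was 0.49 for H3, 0.395 for H4, 0.068 for H2B, -0.166 for H2A and -0.268 for H1. With the same Mki67 values the summed mitosis genes gave r = 0.955 and the S phase and DNA replication genes r = 0.891, although the mitosis list holds Mki67 itself. The summed level of the other 65 members was 10.1 to 13.7 CPM in PARPi plus anti-VEGFA tumours, 8.19 to 11.2 CPM under all 3 treatments, 9.06 to 10.2 CPM in PARPi plus ICB tumours, 7.83 to 10.97 CPM in PARPi tumours and 7.17 to 8.77 CPM in ICB tumours, against 6.64 to 9.06 CPM in controls.

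Of the 70 members 19 passed the filter on low counts and were tested, and 5 of those carried nearly all the counts. A gene could pass through 1 treated group alone, which by itself favours positive differences from controls. The counts called, medians and signs below therefore describe the tested members and are not a property of the family. The 5 comparisons with controls share the same 3 control libraries. The share of all tested genes whose groups did not overlap was not computed. With 3 or 4 libraries per group, a lack of overlap is therefore only a description of the gene named.

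PARPi alone gave no call among the 19 tested members by edgeR's quasi-likelihood test with Benjamini-Hochberg adjustment, against 0.0661% of all 18144 tested genes called. Of the members, 4 had an unadjusted p under 0.05, DESeq2 called 1, Hist1h2bc, and limma on the deposited RPKM called 0. Hist1h2bc, an H2B gene, was at 20.6, 23.1 and 25.2 CPM in PARPi tumours, against 17.2, 17.9 and 18.4 CPM in controls. The groups did not overlap, and the log2 difference was 0.37 (SE 0.10, edgeR adjusted p = 0.165). Hist1h4j also lay above all controls, and Hist2h2be and Hist3h2a lay below all controls, at means of 12.5 and 6.73 CPM in PARPi tumours, against 15.3 and 8.24 CPM in controls, none of them called. The median log2 difference over the tested members was 0.29, against -0.011 over all genes tested.

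ICB alone gave 1 call, against 2.20% of all tested genes. Hist1h2bc rose to 26.6, 22.9 and 24.9 CPM in ICB tumours, against the control values above, a log2 difference of 0.47 (SE 0.10, edgeR adjusted p = 0.0247). That call did not survive the loss of any 1 of the 6 libraries, with adjusted p between 0.0511 and 0.0917. Hist1h1c, which codes for linker histone H1.2, was at 33.8, 27.6 and 29.0 CPM in ICB tumours, against 22.1, 22 and 23.5 CPM in controls, and missed the call at a log2 difference of 0.42 (SE 0.11, adjusted p = 0.0655). All 3 ICB tumours lay above all controls for both genes. They lay below all controls for Hist2h2be, at 11.3, 12.2 and 12.7 CPM against 17.3, 13.4 and 15.1 CPM, which was not called (log2 difference -0.34, SE 0.13, adjusted p = 0.171). The median over the tested members was 0.12, against 0 over all genes.

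PARPi with ICB gave 3 calls, 2 higher and 1 lower, against 16.1% of all tested genes called. Hist1h1c rose to 29.7, 34.1 and 26.7 CPM in PARPi plus ICB tumours, against 22.1, 22 and 23.5 CPM in controls, a log2 difference of 0.42 (SE 0.11, edgeR adjusted p = 0.0187). Hist1h2bc rose to 27.3, 29.8 and 26.9 CPM, against 17.2, 17.9 and 18.4 CPM in controls, by 0.65 (SE 0.11, adjusted p = 0.000655). Hist2h2be, the other H2B gene of high level, fell to 10.4, 11.3 and 10.2 CPM, against 17.3, 13.4 and 15.1 CPM in controls, by 0.52 on the log2 scale (SE 0.13, adjusted p = 0.00987). Each of the 3 genes had groups that did not overlap. Hist1h4d, Hist1h4h and Hist1h4k also lay above all controls and were not called. So 2 genes of the same protein class went opposite ways in the same tumours. Without control replicate 1 the calls of Hist1h1c (adjusted p = 0.0583) and Hist2h2be (0.0536) were lost, leaving 1. Hist1h1c was also lost without control replicate 2 (0.0593) or PARPi plus ICB replicate 2 (0.0818), and Hist2h2be without PARPi plus ICB replicate 3 (0.0621).

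PARPi with anti-VEGFA gave 3 calls, all higher, against 17.8% of all tested genes called. Hist1h2bc showed the largest rise of the genes of high level in any comparison, to 31.9, 32.7, 33.4 and 26.4 CPM, against 17.2, 17.9 and 18.4 CPM in controls, a log2 difference of 0.80 (SE 0.10, edgeR adjusted p = 0.000201). Hist1h1c rose to 27.5, 35.0, 30.3 and 30.6 CPM, against 22.1, 22 and 23.5 CPM in controls, by 0.45 (SE 0.11, adjusted p = 0.00846). The third was Hist1h4h, an H4 gene whose transcript ends near its stem-loop, and it rests on few reads. It passed the filter on low counts mainly through this group, where it is high, so its call is no independent support. It had 23, 10, 11 and 10 counts in these tumours, against 1, 4 and 5 counts in controls, a log2 difference of 1.97 (SE 0.49, adjusted p = 0.0110). The Hist1h4h call was lost without control replicate 1 (adjusted p = 0.0580) and without the libraries with acinar RNA (0.0893). Hist2h2be, at 11.4, 14.4, 13.2 and 11.1 CPM, overlapped the controls and was not called (log2 difference -0.28, SE 0.12, adjusted p = 0.106). The median over the tested members was 0.65, with 15 of 19 positive, against -0.018 over all genes. Members that passed the filter mainly through treated groups enter both values, so they are no support for a shift of the family.

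All 3 treatments together gave 3 calls, 2 higher and 1 lower, against 24.2% of all tested genes called. Hist1h1c rose to 34.5, 32.6, 26.0 and 31.5 CPM, against 22.1, 22 and 23.5 CPM in controls, a log2 difference of 0.47 (SE 0.11, edgeR adjusted p = 0.00520). Hist1h2bc rose to 30.1, 32.4, 24.8 and 27.8 CPM, against 17.2, 17.9 and 18.4 CPM in controls, by 0.69 (SE 0.10, adjusted p = 0.000181). Hist2h2be fell to 13.7, 10.6, 9.84 and 10.4 CPM, against 17.3, 13.4 and 15.1 CPM in controls, by 0.45 on the log2 scale (SE 0.12, adjusted p = 0.0106). Triple-treated tumours lay above all controls for Hist1h1c and Hist1h2bc, while 1 of 4 lay above the lowest control for Hist2h2be. The Hist2h2be call was lost without control replicate 1 (adjusted p = 0.0667) and with the compared groups fitted alone (0.0552), and without triple treatment replicate 4 the number of calls was 5, with Hist1h2bg and Hist1h4i added.

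**Figure D3:**
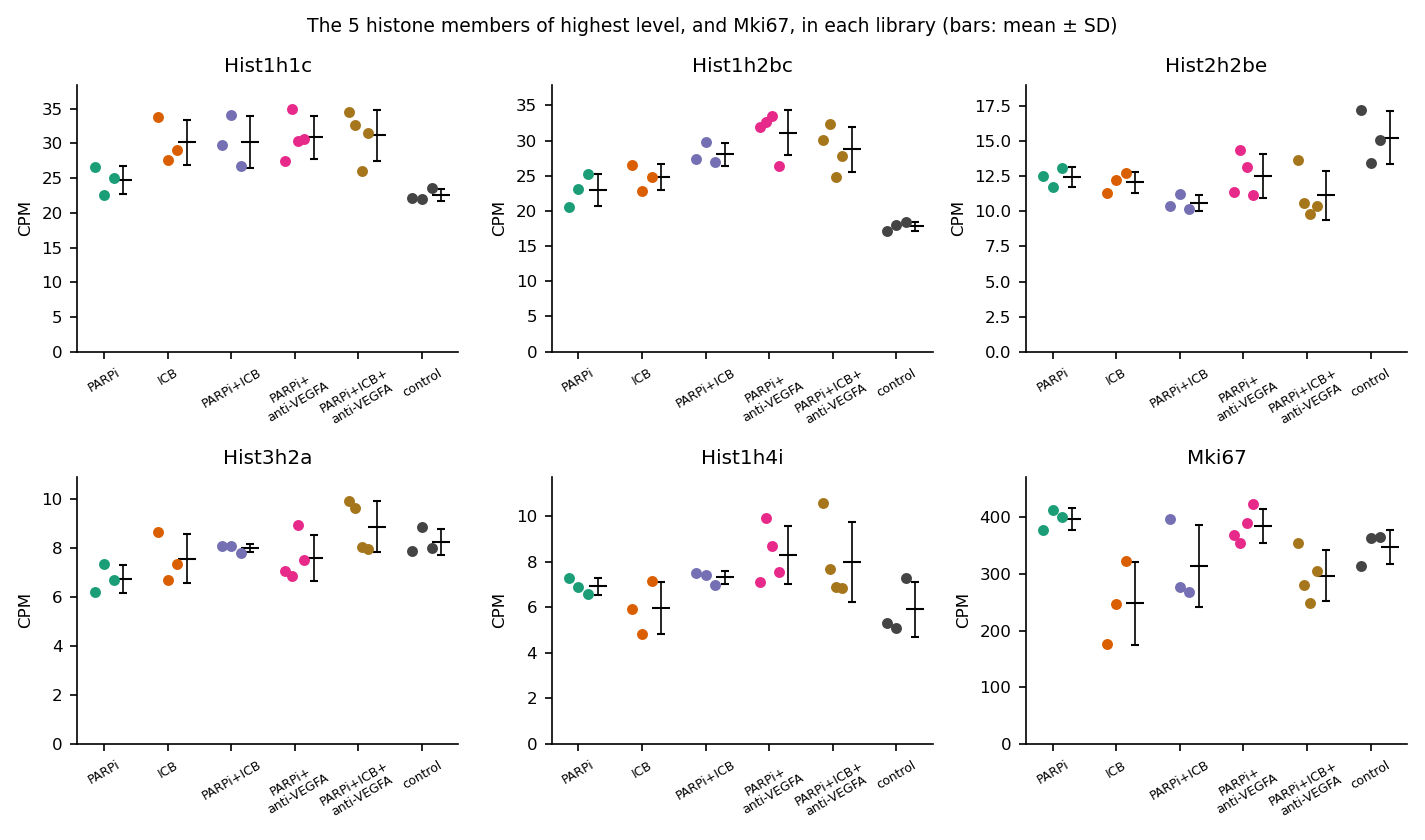
CPM of the 5 members of highest level and of Mki67 in each of 20 libraries, 1 point per library, with the mean and SD of each group as a bar beside the points. Hist1h1c and Hist1h2bc lie higher and Hist2h2be lower in most treated tumours than in controls, while Hist3h2a overlaps the controls in every treated group except PARPi.

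Hist3h2a and Hist1h4i, the remaining genes of high level, were called in no comparison by edgeR. Hist3h2a averaged 6.73 ± 0.569 CPM in PARPi tumours, 7.56 ± 1.00 in ICB, 7.99 ± 0.164 in PARPi plus ICB, 7.60 ± 0.933 in PARPi plus anti-VEGFA and 8.87 ± 1.04 in triple-treated tumours, against 8.24 ± 0.522 in controls (SD, n = 3 or 4). Hist1h4i was at 7.10, 9.95, 8.68 and 7.56 CPM in PARPi plus anti-VEGFA tumours and at 10.6, 7.70, 6.89 and 6.86 CPM in triple-treated tumours, against 5.32, 5.10 and 7.31 CPM in controls. Both treated groups overlapped the controls in Hist1h4i, and its differences stood just outside the threshold, at 0.49 (SE 0.17, adjusted p = 0.0559) and 0.44 (SE 0.17, adjusted p = 0.0731) by edgeR. Of the members expected to make some polyadenylated RNA, Hist4h4 did not pass the filter and had 85 counts in all.

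Of the 6 tested H4 genes, Hist1h4j, Hist1h4k, Hist1h4d, Hist1h4h and Hist1h4i had a positive difference in all 5 comparisons with controls, of which only that of Hist1h4h in PARPi plus anti-VEGFA was called. Hist1h4j was at 1.18, 1.09 and 1.21 CPM in PARPi tumours, against 0.441, 0.403 and 0.761 CPM in controls, groups that did not overlap, with a log2 difference of 1.11 (SE 0.38, edgeR adjusted p = 0.247). In the linker class, Hist1h1b ran the other way from Hist1h1c, with differences from -0.57 under all 3 treatments to -0.10 in PARPi plus ICB, none of them called. Since these comparisons share the 3 control libraries, the repeated direction is not independent. Hist1h4d, Hist1h4h and Hist1h4k averaged only 0.166, 0.11 and 0.324 CPM in controls. Passing the filter through treated groups favours a positive difference, so the direction of these genes is no support. Hist1h4i was nearly level in ICB tumours, at 5.98 ± 1.15 CPM against 5.91 ± 1.21 CPM in controls (SD).

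**Figure D4:**
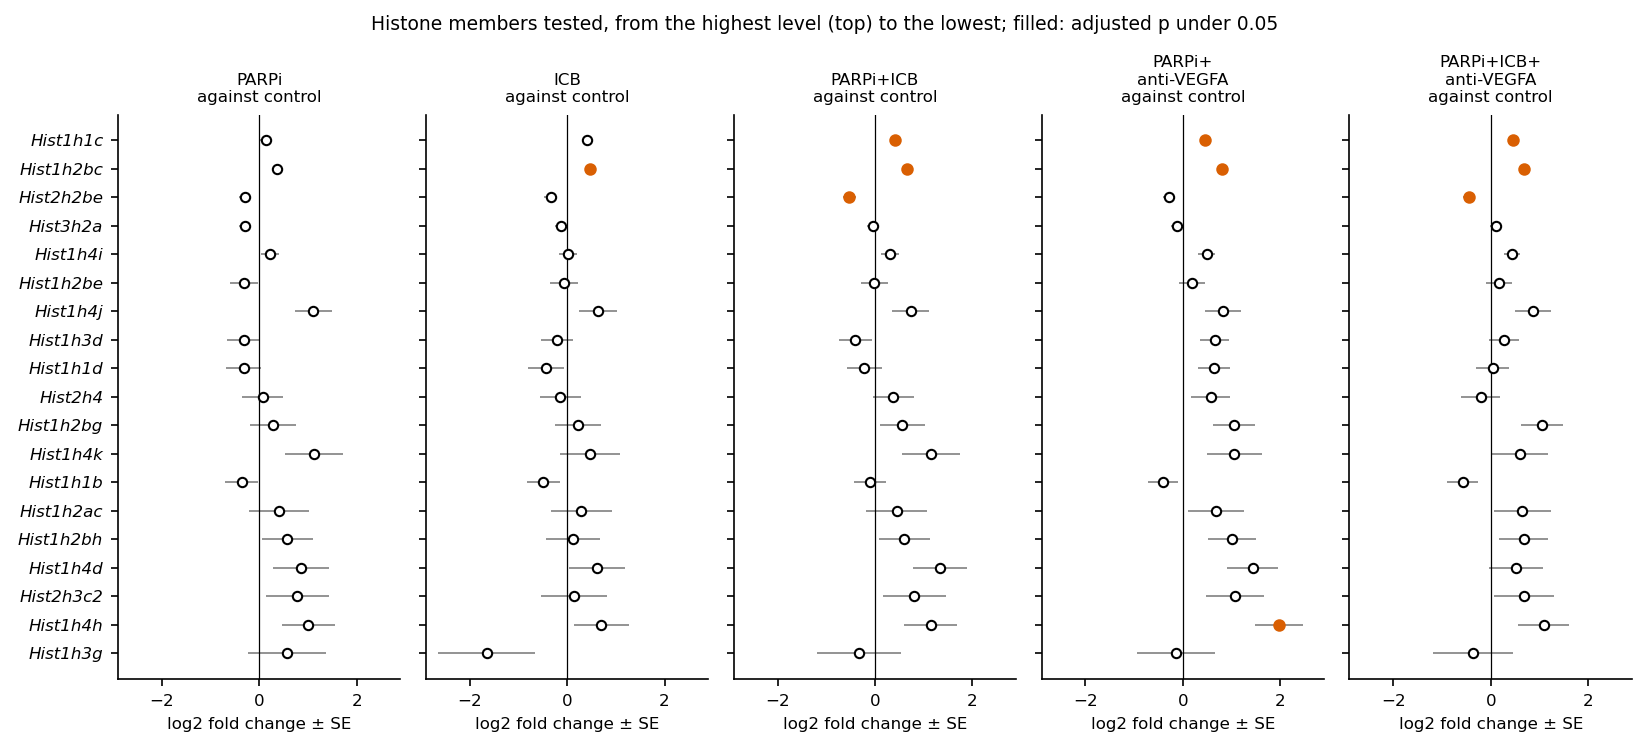
Log2 fold change with its SE of the 19 tested members in each treated group against control, ordered from the highest level at the top to the lowest; filled points have an adjusted p under 0.05. Hist1h2bc is positive in all 5 panels and filled in 4, and the SE widens down the page as counts fall.

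When a treatment was added to another, no member was called by edgeR. Adding anti-VEGFA to PARPi called 0 of 19 members, against 0.573% of all tested genes, with 5 members at an unadjusted p under 0.05, 1 call by DESeq2 and 0 by limma. Hist1h2bc came nearest, at 31.9, 32.7, 33.4 and 26.4 CPM with anti-VEGFA, against 20.6, 23.1 and 25.2 CPM with PARPi alone, groups that did not overlap (log2 difference 0.44, SE 0.10, adjusted p = 0.0530). It was called with the replicate number as a block, without the libraries with acinar RNA, without the filter, and by DESeq2. Adding ICB to PARPi called 0, against 1.26% of all genes (2 members at an unadjusted p under 0.05). Adding ICB to PARPi plus anti-VEGFA called 0, against 0.0882% (2 members), and adding anti-VEGFA to PARPi plus ICB called 0, against 0% (1 member). DESeq2 and limma called 0 in these 3 comparisons too.

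Whether ICB acted differently with and without PARPi, and with and without anti-VEGFA under PARPi, was tested as an interaction. Both tests called 0 members by edgeR, against 0% of all genes each, and DESeq2 and limma called 0 members as well. In the first, 0 members had an unadjusted p under 0.05. In the second, 1 did: the interaction for Hist1h2bc was -0.40 (SE 0.14, unadjusted p = 0.00957, adjusted p = 0.614). These interactions do not cover every difference between treated groups: that between PARPi plus anti-VEGFA and PARPi alone is the addition given above.

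Several other measures moved with these results. All 6 listed T cell genes were called higher in PARPi plus ICB, PARPi plus anti-VEGFA and triple-treated tumours, and 2 in ICB tumours. Their summed level was 57.6 to 76.4 CPM in PARPi, 63.4 to 80.5 in ICB, 76.7 to 133.3 in PARPi plus ICB, 73.4 to 120.2 in PARPi plus anti-VEGFA and 94.7 to 149.7 CPM in triple-treated tumours, against 36.4 to 50.6 CPM in controls. The B cell and plasma cell genes moved as well, with 7 of 7 called higher in PARPi plus ICB and in triple-treated tumours, 5 in PARPi plus anti-VEGFA, 3 in ICB and 1 in PARPi. Their sum was 1386.1 to 4609.4 CPM over all treated tumours, against 555.1 to 919.9 CPM in controls. Jchain, at a mean of 2144 CPM over the libraries, made up most of that sum, and the next highest, Pou2af1, averaged 58.3 CPM. Of 4 adipocyte genes tested, 3 were called higher in PARPi plus anti-VEGFA and in triple-treated tumours and 1 in PARPi plus ICB. The ID8 epithelial and mesothelial genes, of which 5 of 8 were called lower and 1, Epcam, higher in each of the 3 PARPi combinations, summed to 1906 to 2257 CPM there, against 2428 to 2813 CPM in controls. None of the listed T cell or epithelial genes was at 0 on average. The part of these cells in the histone differences was not tested.

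With the summed B cell and plasma cell genes, a sum made up mostly of Jchain, r over all libraries was 0.596 for Hist1h2bc and -0.717 for Hist2h2be. Over deviations from group means it was -0.611 and -0.297. Over all 20 libraries the log2 level of Hist1h2bc had r = 0.706 with the summed T cell genes and r = -0.73 with the epithelial genes, and Hist2h2be had the opposite pattern, r = -0.737 and r = 0.667. Over deviations from group means the values for T cells were -0.522 and -0.416, so the sign turned within groups for Hist1h2bc and was kept for Hist2h2be. The values for epithelial genes within groups were 0.182 for Hist1h2bc, again turned, and 0.353 for Hist2h2be, again kept. Between the members, Hist1h1c and Hist1h2bc had r = 0.808 over all libraries and 0.482 within groups, and Hist1h2bc and Hist2h2be had r = -0.466 over all libraries and 0.369 within groups.

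The RNAs read as signs of library make-up also moved. Rn7sk, Lars2 and Mir6236 were all called lower in PARPi plus ICB and PARPi plus anti-VEGFA tumours, 2 of 3 in ICB and 1 of 3 in triple-treated tumours. With their mean as a covariate, the calls of PARPi plus anti-VEGFA fell to 0, with log2 differences of 0.69 for Hist1h2bc (adjusted p = 0.13), 0.34 for Hist1h1c (adjusted p = 0.47) and 2.60 for Hist1h4h (adjusted p = 0.218). The call of Hist1h2bc in ICB was lost at 0.37 (adjusted p = 0.46), and that of Hist1h1c in PARPi plus ICB at 0.34 (adjusted p = 0.285). In the PARPi plus anti-VEGFA and ICB comparisons the same covariate left 0 genes called in the whole table. The covariate was 2.72 to 2.81 in PARPi plus anti-VEGFA tumours, 2.74 to 3.075 in ICB and 2.95 to 3.53 in PARPi plus ICB. In controls it was 4.47 to 4.82, with no overlap. In these comparisons the covariate and the treatment therefore cannot be told apart. In triple-treated tumours all 3 calls remained. Over all libraries the summed histone level had r = -0.603 with that mean and -0.356 within groups.

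Other genes of the histone pathway were taken from fixed lists. Of the 11 replication-independent histone genes, 5 were called higher in PARPi plus anti-VEGFA tumours, 3 in PARPi plus ICB, and 1 higher and 1 lower in triple-treated tumours, against 17.8%, 16.1% and 24.2% of all genes called in these comparisons. By edgeR 0 were called in PARPi and in ICB, with 2 and 1 at an unadjusted p under 0.05. H2afz, which codes for H2A.Z, rose to 97.7, 109.7, 112.5 and 97.3 CPM in PARPi plus anti-VEGFA tumours, against 82.7, 68.1 and 82.8 CPM in controls, by 0.42 on the log2 scale (SE 0.09, edgeR adjusted p = 0.00489). H2afj rose by 0.62 (SE 0.13, adjusted p = 0.00297) and H2afy, a macroH2A gene, by 0.17 (SE 0.04, adjusted p = 0.0107) in the same comparison. Also called there were H2afx, by 0.363 (SE 0.111, adjusted p = 0.0315), and H1fx, by 1.885 (SE 0.583, adjusted p = 0.0326). H1fx averaged only 0.273 CPM over the libraries, so its call rests on few reads. H3f3a fell by 0.25 where ICB was added to PARPi (SE 0.06, adjusted p = 0.0364).

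Of the 12 genes of histone gene transcription and 3′ processing, 1 was called higher in PARPi plus anti-VEGFA tumours, Lsm11, a component of the U7 snRNP (log2 difference 0.28, SE 0.09, adjusted p = 0.0405). In triple-treated tumours 2 were called lower, Casp8ap2 by 0.40 (SE 0.14, adjusted p = 0.0437) and Cstf2 by 0.20 (SE 0.06, adjusted p = 0.0316), and in PARPi plus ICB 1, Cstf2. Casp8ap2 (FLASH) and Cstf2 (CstF-64) both take part in making the histone mRNA end. Slbp itself was called nowhere. Of the 21 S phase and DNA replication genes 3 were called higher in PARPi plus anti-VEGFA tumours (17.8% of all genes called in either direction), 1 lower in PARPi plus ICB (16.1%), and 1 higher and 1 lower in triple-treated tumours (24.2%). The gene called lower in both was Rrm1, a ribonucleotide reductase subunit, by 0.22 and 0.20. Those called higher in PARPi plus anti-VEGFA included Pold1, a DNA polymerase subunit, at 0.57 (SE 0.10, adjusted p = 0.0012), and Rrm2, which codes for another subunit of ribonucleotide reductase, at 0.47 (SE 0.12, adjusted p = 0.0117). Of the 14 mitosis genes 5 were called higher there, and of the 8 histone chaperones 1, Daxx. In ICB tumours edgeR called 0 genes of these 4 lists (1 processing, 6 S phase, 9 mitosis and 4 chaperone genes at an unadjusted p under 0.05), and all 14 mitosis genes had a negative difference with a median of -0.38.

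The genes most like the summed histone level were sought among 14834 tested genes with names, by Pearson's r over deviations from group means in 20 libraries. The closest were Rpp25l (r = 0.824), Mrpl43 (0.819), Mapk11 (0.816), Arl4d (0.805), Cryaa (0.804), Ap1s1 (0.8), Rpp25 (0.796), Spsb4 (0.795), Lgals7 (0.789) and Fgf13 (0.786). The 99th percentile of all genes was 0.662 and the median -0.021. Mki67, at 0.056, was not near the top.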

How the data were processed

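RNA-seq of 20 ID8 Trp53-/-Brca1-/- tumours was deposited as a table of raw counts per Ensembl gene and a table of log2 RPKM values. Per the submitters' processing notes STAR, HTSeq and GRCm38 were used, with versions not given in the sources used here. Per the labels the libraries were stranded, from total RNA with a depletion step; the strand setting of the counting is not given. The deposited log2 values are log2 of RPKM plus 1, and the authors' RPKM matched division by the whole gene span for 99.4% of 10960 genes (within 1%), not exon length, so levels per kb here are CPM (counts scaled to TMM-adjusted library totals) over GENCODE M21 exon length. RPKM rows were joined to the 70 members by symbol or by RefSeq synonym and position.

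Counts were tested with edgeR 4.0.16 (quasi-likelihood, TMM, low counts removed by filterByExpr, set to 10 and a total of 15, R 4.3.3) on all 20 libraries and 6 groups, with 11 contrasts and Benjamini-Hochberg adjustment over all 18144 genes tested. Calls are adjusted p-values below 0.05. The procedure was tested on simulated data. Alternatives were DESeq2 1.42.0 (size factors, and its Wald test), limma 3.58.1 on the deposited log2 RPKM, no filter, the replicate number as a block, the compared groups alone, a covariate of library make-up, libraries with acinar RNA left out, and each library left out. Stem-loops were sought in GENCODE M21 transcripts and motifs in RefSeq upstream stretches. Genes were named by level within class, by smallest p among calls, and by likeness to the summed level; members and lists were chosen with earlier results of these data known.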

Additional observations from a re-analysis of the deposited data

Results flagged for a closer look

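In triple-treated tumours, replicate 2 stood apart from the other 3 in Hist2h3c2, an H3 gene, with 0.678 CPM against 0.0971 to 0.172 CPM in the others. It had 19 counts there, against 3 to 5 counts in the others, and it is also the library in which pancreatic acinar genes were highest (mean of 8.89 log2 CPM). It was the only such case among 44 groups of 4 tumours examined, and chance flags about 1 in 20.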

How the results depend on the processing

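With DESeq2's Wald test the number of called members was 1 in PARPi, 2 in ICB and 1 where anti-VEGFA was added to PARPi. That last count was also 1 with no filter, with the replicate number as a block and without libraries with acinar RNA. With limma on the deposited RPKM it was 6 in PARPi plus anti-VEGFA, over 58 members tested. With the covariate of library make-up it was 0 in ICB and 0 in PARPi plus anti-VEGFA. With 1 library left out it was 0 to 0 in PARPi, 0 to 0 in ICB, 1 to 3 in PARPi plus ICB, 2 to 4 in PARPi plus anti-VEGFA and 2 to 5 under all 3 treatments. The causes were not tested.

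The replicate numbers did not pair the tumours: deviations from group means of same-numbered libraries had a mean r of 0.006 over 46 pairs (-0.218 to 0.175), against -0.002 over 120 other pairs. With the replicate number as a block, the called members numbered 0, 1, 3, 3 and 4 in PARPi, ICB, PARPi plus ICB, PARPi plus anti-VEGFA and triple treatment.

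The correlation of the summed level with Mki67 was 0.098 with deposited RPKM, 0.302 as the mean of log2 CPM over members and 0.277 without the 3 members of highest level; with 1 library left out it was -0.071 to 0.068. Mki67 in ICB tumours was called only without ICB replicate 3 (log2 difference -0.72, adjusted p = 0.0416). Depth limits the 51 untested members, where a few counts per library show no moderate change.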
